A study of Mus musculus with 18 samples.

Results

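The CDK inhibitor genes were followed through hematopoietic stem cells (HSCs) of young and aged mice. They were the 7 genes with the symbols Cdkn1a, Cdkn1b, Cdkn1c, Cdkn2a, Cdkn2b, Cdkn2c and Cdkn2d among the 24421 gene symbols of the count table, and all 7 had a row in it. RNA was sequenced in 18 libraries from bone marrow of Hoxb5-tri-mCherry mice, which carry an mCherry reporter of the HSC gene Hoxb5 at both ages and in every group. Hoxb5+ cells were sorted as LT-HSCs (long-term), Hoxb5- cells of the same surface phenotype as ST-HSCs (short-term), and that phenotype without regard to the reporter as bulk-HSCs, so that bulk-HSCs are a mixture of both. Young mice were 2 to 3 months old, aged mice were 23 to 25 months old, and each of the 6 groups had 3 libraries. The labels do not say whether a library came from 1 animal or from several pooled, nor whether libraries of different fractions shared animals, so that the spread between libraries may be partly technical.

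CDK inhibitors hold the cell cycle in check before DNA replication. The Cip/Kip proteins p21 (Cdkn1a), p27 (Cdkn1b) and p57 (Cdkn1c) bind complexes of cyclins with CDKs, and the INK4 proteins p16 (Cdkn2a), p15 (Cdkn2b), p18 (Cdkn2c) and p19 (Cdkn2d) bind CDK4 and CDK6 and keep them from D-type cyclins. Cdkn2a also encodes ARF, which stabilises p53, from a separate first exon. In HSCs these genes are known for their part in quiescence, p57 above all, and p16 is known as a gene that rises in many aging tissues.

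Of the 7 genes, 5 were detected. Cdkn1b, Cdkn1c and Cdkn2d were expressed in every library, Cdkn2c was low in some young libraries, Cdkn1a was absent from the counts of 5 young libraries, and Cdkn2a and Cdkn2b had 0 counts in all 18. Cdkn1c was lower in ST-HSCs than in bulk-HSCs, the mixture, whose mean also lay above that of LT-HSCs. Cdkn1a was the 1 member whose level passed the test of age, averaged over the fractions. Levels are given as CPM, counts scaled to a common library size with TMM factors, which correct for differences in composition.

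The libraries held 16495048 to 22973844 counts, and the limit that a count of 0 allows, taken as 3 counts, was 0.132 to 0.176 CPM, for counting error only. Young libraries listed more low genes at 0 than aged ones. Of the 1416 tested genes with a mean of 2 to 6 CPM, 5.23% to 50.6% were at 0 in a young library, highest in replicate 3 of LT-HSCs (49.5%) and of ST-HSCs (50.6%), and 1.91% to 8.12% in an aged library. Of 9653 well-counted genes, those whose median library held 200 counts or more, young libraries listed 1 to 163 at 0 and aged libraries 2 to 6, so that a 0 in a young library need not be a true absence. The cells matched their labels by their markers. Kit, the stem cell factor receptor, stood at 1075 to 1570 CPM in all libraries, and Hoxb5 averaged 19.1 and 22.97 CPM in young and aged LT-HSCs against 2.08 and 2.21 CPM in ST-HSCs. Of 11 markers of mature blood cells, Cd3e, Cd8a and Ms4a1 were at 0 in all 18 libraries, and the sum of all 11 ran from 0 to 2.74 CPM in young LT-HSCs, 10.6 to 18.6 in young ST-HSCs and 0.499 to 8.78 in young bulk-HSCs. In aged mice that sum was 2.25 to 7.97, 8.87 to 16.3 and 3.37 to 9.34 CPM, respectively.

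Cdkn1a, which encodes p21, lies on the plus strand of chromosome 17 (GRCm38, chr17:29090976-29100727), and RefSeq gives it 2 transcription starts. p53 is the best known activator of this gene, and the 250 bases before each start are shown because the regulators and targets of p53 are measured beside it. The capitals mark the p53 core (CATG, any 6 bases and CATG again), the GC box GGGCGG and TATAA, each searched on both strands, and the sequences are from RefSeq, GRCm38.p6, plus strand, 5′ to 3′, at chr17:29090729-29090978 and chr17:29093519-29093768.
Cdkn1a upstream start: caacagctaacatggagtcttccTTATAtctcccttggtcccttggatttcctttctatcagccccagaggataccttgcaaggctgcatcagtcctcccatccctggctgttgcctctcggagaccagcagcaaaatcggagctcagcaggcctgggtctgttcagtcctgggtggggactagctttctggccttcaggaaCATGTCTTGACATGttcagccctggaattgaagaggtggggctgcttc
Cdkn1a downstream start: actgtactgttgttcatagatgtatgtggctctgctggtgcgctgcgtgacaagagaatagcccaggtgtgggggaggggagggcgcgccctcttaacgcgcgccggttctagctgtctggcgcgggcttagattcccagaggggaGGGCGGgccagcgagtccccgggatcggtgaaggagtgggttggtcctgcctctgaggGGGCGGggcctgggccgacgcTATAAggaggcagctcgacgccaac
The p53 core lay 48 bases before the upstream start, and 0.49% of 32851 promoters hold it in a window of the same length. It was chosen as a motif after the sequence had been seen. The downstream window had no p53 core but held 2 GC boxes, a motif in 32.7% of promoters, and TATAA 25 bases before the start, a motif in 22.8%. RefSeq windows were at hand for 6 of the 7 members. Cdkn1c had no entry. A match is only a run of letters, and gene counts do not tell which start was used.

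Cdkn1a was low throughout and varied most in young mice. Young LT-HSCs held 0, 3.82 and 7.15 CPM, young ST-HSCs held 0.331, 2.54 and 0, and all 3 young bulk-HSC libraries were at 0. In aged LT-HSCs it stood at 7.47, 3.90 and 6.92 CPM, in aged ST-HSCs at 5.15, 3.50 and 4.22, and in aged bulk-HSCs at 3.70, 4.41 and 6.93. All 9 aged libraries thus lay between 3.50 and 7.47 CPM, while 7 of the 9 young libraries were below them and LT-HSC replicates 2 and 3 were within their range. The group means were 3.66 ± 3.58, 0.956 ± 1.38 and 0 in young LT-HSCs, ST-HSCs and bulk-HSCs, and 6.10 ± 1.92, 4.29 ± 0.825 and 5.01 ± 1.70 CPM in the aged groups (SD, n = 3).

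Averaged over the 3 fractions, Cdkn1a was higher in aged HSCs, with 5.13 CPM against 1.54 CPM in young HSCs, a ratio of 3.34. The young mean includes 5 libraries at 0, which need not be true absences, so this ratio is no firm measure of fold. The fitted log2 difference was 4.18 ± 1.11 (SE, edgeR quasi-likelihood adjusted p = 0.0321), which is no measure of the fold because 1 group was at 0. Cdkn1a was the 1 of 5 tested members called in this comparison, in which 6.75% of the 12808 genes tested were called. A two-sided exact permutation test, in which age labels were exchanged within each fraction, gave p = 0.0015, or 0.0257 adjusted over all genes tested, and called 8.59% of them. Without young LT-HSC and ST-HSC replicates 3, the libraries with the most zeros, the averaged difference was still called (log2 4.31, edgeR adjusted p = 0.0269). Those replicates held 7.15 and 0 CPM of Cdkn1a, and the 3 young bulk-HSC libraries at 0 stayed in. This fit therefore cannot tell the part of the zeros in the call. In bulk-HSCs alone the aged mean was 5.01 CPM and the gene was listed at 0 in all 3 young libraries, and the difference did not pass (edgeR adjusted p = 0.0615). No fold is given for it, because these young libraries also listed 61, 29 and 67 of the well-counted genes at 0. Every aged bulk-HSC library was above every young one, as for 13.4% of genes tested.

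The change with age within LT-HSCs and ST-HSCs did not pass the test either. The log2 difference was 0.74 in LT-HSCs, with a 95% interval of -2.71 to 4.19 and overlapping libraries (edgeR adjusted p = 0.979). In ST-HSCs it was 2.15, with an interval of -1.43 to 5.74 (edgeR adjusted p = 0.842), although every aged library was above every young one, as was the case for 10.2% of genes tested. The age difference was nominally smaller in LT-HSCs and in ST-HSCs than in bulk-HSCs (edgeR unadjusted p = 0.00591 and 0.0142), but the interactions did not pass (edgeR adjusted p = 0.686 and 0.747, with 0.00781% and 0.0625% of genes called). It was also nominally higher in young LT-HSCs and ST-HSCs than in young bulk-HSCs (edgeR unadjusted p = 0.0018 and 0.00638), again without passing (adjusted p = 0.137 and 0.301). The same held for both fractions against bulk-HSCs over both ages (edgeR unadjusted p = 0.00422 and 0.0187, adjusted p = 0.278 and 0.610). All of these differences rest on the 3 young bulk-HSC libraries at 0.

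The share of low genes listed at 0 moved with the level of Cdkn1a. The 4 young libraries with Cdkn1a above 0 had 5.23%, 12.8%, 18.4% and 49.5% of low genes at 0, and the 5 young libraries with Cdkn1a at 0 had 26.6% to 50.6%. The young library with the fewest such zeros, LT-HSC replicate 2, held 3.82 CPM of Cdkn1a, within the aged range, and LT-HSC replicate 3, with 49.5% at 0, held 7.15 CPM. Among the 1416 low genes, 110 (7.77%) were at 0 in 5 or more young libraries and above 0 in all aged ones, as Cdkn1a was, and 0 showed the reverse. With detected genes as a covariate the averaged age difference was no longer called (log2 3.59, edgeR adjusted p = 0.579), in a fit that called 153 genes in place of 864, nor was it in LT-HSCs and ST-HSCs without bulk-HSCs (log2 1.45, adjusted p = 0.686). It also missed the threshold without any 1 of 10 libraries (edgeR adjusted p = 0.0501 to 0.062), which were young ST-HSC replicate 1, young bulk-HSC replicates 2 and 3, aged LT-HSC replicates 1 and 3, all 3 of aged ST-HSCs, and aged bulk-HSC replicates 2 and 3. The part of the zeros in this result was not tested further. The annotation also places exons of AC167363.2 on the opposite strand of Cdkn1a, and whether strand was used in counting is not given in the sources used here.

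**Figure D1:**
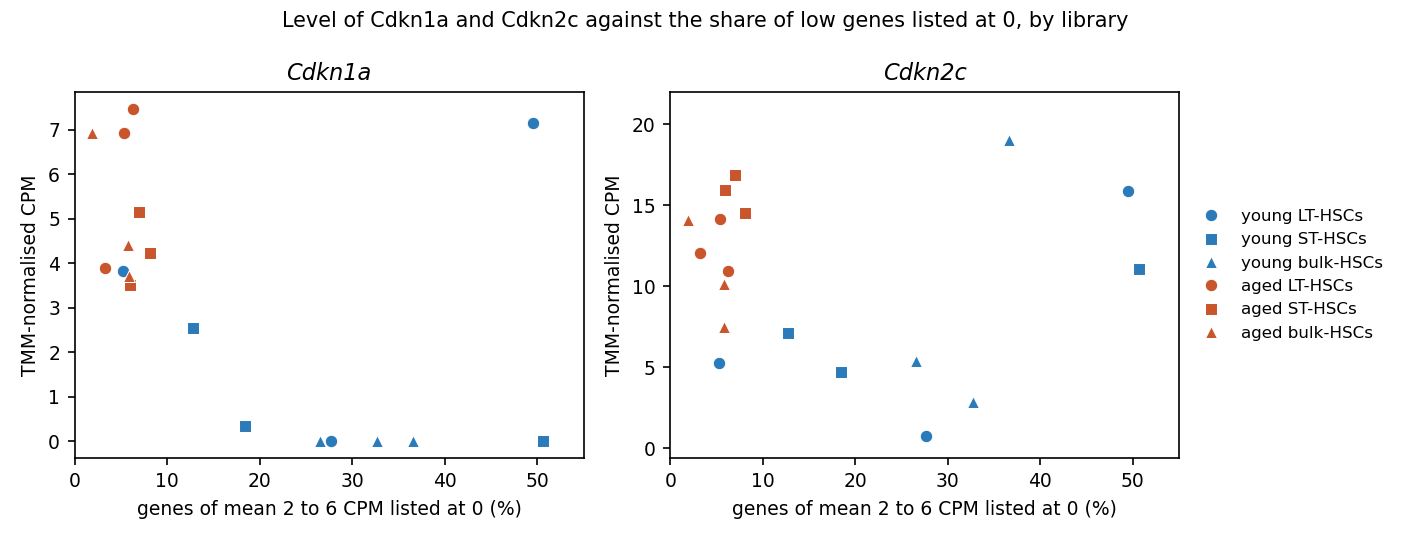
Level of Cdkn1a and Cdkn2c (TMM-normalised CPM) against the percentage of the 1416 genes of mean 2 to 6 CPM that a library lists at 0, 1 point per library. Aged libraries sit between 1.91% and 8.12%, and young libraries spread from 5.23% to 50.6%, with Cdkn1a at 0 in 5 of the 6 young libraries at 26.6% or more.

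Cdkn1b encodes p27 (plus strand, chr6:134920401-134925513) and was well expressed in every library. Its young libraries read 82.6, 74.4 and 97.1 CPM in LT-HSCs, 94.6, 59.4 and 61.4 in ST-HSCs, and 35.1, 59.5 and 87.5 in bulk-HSCs. Its aged libraries read 64.4, 65.1 and 52.2 CPM in LT-HSCs, 64.1, 64.4 and 50.9 in ST-HSCs, and 52.6, 58.8 and 57.8 in bulk-HSCs. All 3 young LT-HSC libraries were above all 3 aged ones, an arrangement of 5.89% of genes tested, while the ages overlapped in the other two fractions. No age difference of Cdkn1b passed. The log2 difference was -0.48 ± 0.26 in LT-HSCs (SE, edgeR adjusted p = 0.650), -0.26 ± 0.26 in ST-HSCs (adjusted p = 0.911), -0.11 ± 0.26 in bulk-HSCs (adjusted p = 0.951) and -0.28 on average, with a 95% interval of -0.60 to 0.03 (adjusted p = 0.311). In the order of its group means, from 84.7 ± 11.5 CPM in young LT-HSCs to 56.4 ± 3.32 in aged bulk-HSCs (SD, n = 3), all neighbours overlapped.

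**Figure D2:**
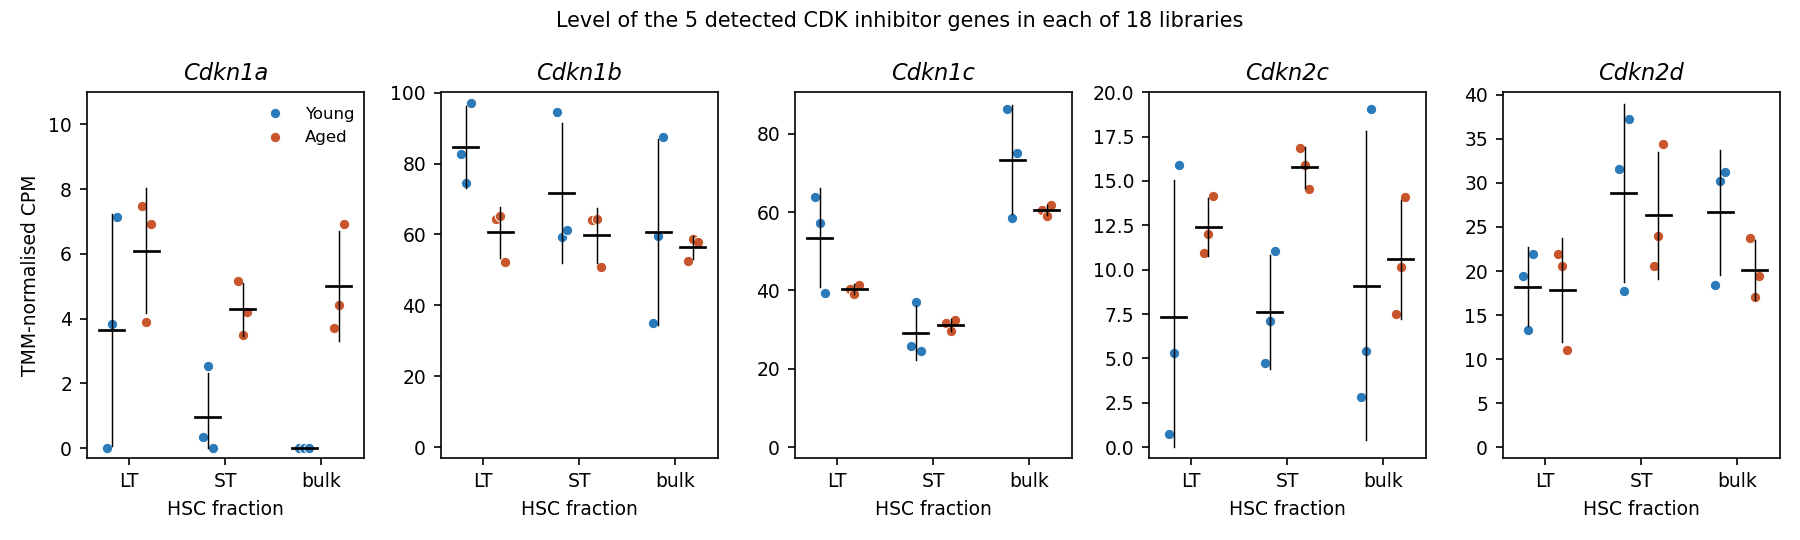
Level of the 5 detected members in every library (TMM-normalised CPM, linear axes that include 0), by fraction and age. Points are libraries, horizontal bars are means and vertical bars are the SD of 3 libraries, cut at 0. Cdkn1c is separated by fraction in aged mice, and Cdkn1a is at 0 in all 3 young bulk-HSC libraries.

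Cdkn1c, the gene of p57 (minus strand, chr7:143458339-143461050), differed between ST-HSCs and bulk-HSCs. At both ages its group mean was highest in bulk-HSCs and lowest in ST-HSCs. In young mice it read 63.8, 57.1 and 39.4 CPM in LT-HSCs, 25.8, 37.2 and 24.5 in ST-HSCs, and 86.4, 58.6 and 75.2 in bulk-HSCs. Aged mice read 40.5, 39.0 and 41.5 CPM in LT-HSCs, 31.6, 29.6 and 32.5 in ST-HSCs, and 60.6, 59.1 and 61.8 in bulk-HSCs. The 3 aged groups did not overlap, in the order bulk-HSCs, LT-HSCs and ST-HSCs, as was so for 0.18% of genes tested. Every bulk-HSC library of either age was above every ST-HSC library of either age, which held for 0.133% of genes tested.

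ST-HSCs held less Cdkn1c than bulk-HSCs in young mice, 29.1 ± 6.97 against 73.4 ± 13.99 CPM (SD, n = 3). The log2 difference was -1.33 ± 0.22 (SE, edgeR adjusted p = 0.0103), in a comparison that called 0.164% of genes tested and 1 of 5 tested members. Over both ages the difference was -1.14 ± 0.15 (edgeR adjusted p = 0.00422, 0.101% of genes called), again in 1 of 5 members. In aged mice alone it was -0.95 ± 0.21 and did not pass (31.2 ± 1.47 against 60.5 ± 1.36 CPM, edgeR adjusted p = 0.407), in a comparison that called 0 of the 12808 genes with edgeR. There 346 genes (2.7%) had an edgeR unadjusted p under 0.05, a smaller share than that threshold would pass with no differences. Cdkn1c passed that comparison with DESeq2 (adjusted p = 0.004) and with limma-voom with sample quality weights (adjusted p = 0.00966). The young difference was lost with limma-voom (adjusted p = 0.103), in a fit of the compared groups alone (edgeR adjusted p = 0.718) and without young ST-HSC replicate 3 (edgeR adjusted p = 0.0516). The difference over both ages was called under all 29 alternatives, with log2 values from -1.25 to -1.07. The summed mature blood markers, given above, were also highest in ST-HSCs at both ages, and their part in the Cdkn1c difference was not tested.

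The mean of LT-HSCs lay between those of the other two fractions at both ages, and edgeR did not call LT-HSCs apart from either. Young LT-HSCs held 53.4 ± 12.6 CPM of Cdkn1c, 0.87 ± 0.21 above ST-HSCs on the log2 scale (edgeR adjusted p = 0.0853, 0.429% of genes called) with no overlap of the libraries (6.04% of genes), and 0.46 ± 0.21 below bulk-HSCs (edgeR adjusted p = 0.418, 0.273% called). Aged LT-HSCs held 40.3 ± 1.25 CPM, 0.59 ± 0.21 below bulk-HSCs (edgeR unadjusted p = 0.0133, adjusted p = 1, 0% called, and 3.29% of genes, 421, with an unadjusted p under 0.05). Over both ages LT-HSCs were 0.62 ± 0.15 above ST-HSCs (edgeR adjusted p = 0.069, 0.812% called) and 0.52 ± 0.15 below bulk-HSCs (edgeR adjusted p = 0.244, 0.195% called). DESeq2 called LT-HSCs apart from ST-HSCs in young mice (adjusted p = 0.00278) and over both ages (adjusted p = 0.00272), and from bulk-HSCs over both ages (adjusted p = 0.0358). The difference from ST-HSCs over both ages passed in 5 of 29 alternatives and that from bulk-HSCs in 1 of 29. The mean level in bulk-HSCs, the mixture, was above those of both of its parts at both ages. Mixing the LT-HSC and ST-HSC levels would give a value between them, and why bulk-HSCs lay above both was not tested. The group means had bulk-HSCs above both at both ages in 11.2% of genes tested.

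The age differences of Cdkn1c were small against their errors. They were -0.41 ± 0.21 in LT-HSCs (SE, edgeR adjusted p = 0.640), 0.10 ± 0.21 in ST-HSCs (adjusted p = 0.990), -0.28 ± 0.21 in bulk-HSCs (adjusted p = 0.690) and -0.20 on average, with a 95% interval of -0.45 to 0.06 (adjusted p = 0.429). The spread between libraries did differ in size. The within-group SD of Cdkn1c was 0.051 on the log2 scale in aged mice and 0.33 in young mice, where the median over 4937 genes of like level was 0.23 and 0.39. The main fit used 1 estimate of spread per gene over all 6 groups. With only the compared groups fitted, the edgeR unadjusted p of ST-HSCs against bulk-HSCs rose from 8.71e-06 to 0.000729 in young mice. In aged mice it fell from 0.000317 to 8.04e-05, with an adjusted p of 0.103. The part of the shared spread in these changes was not tested. An antisense gene, Gm44732, overlaps exons of Cdkn1c, and reads of both cannot be told apart if strand was not used in counting.

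**Figure D3:**
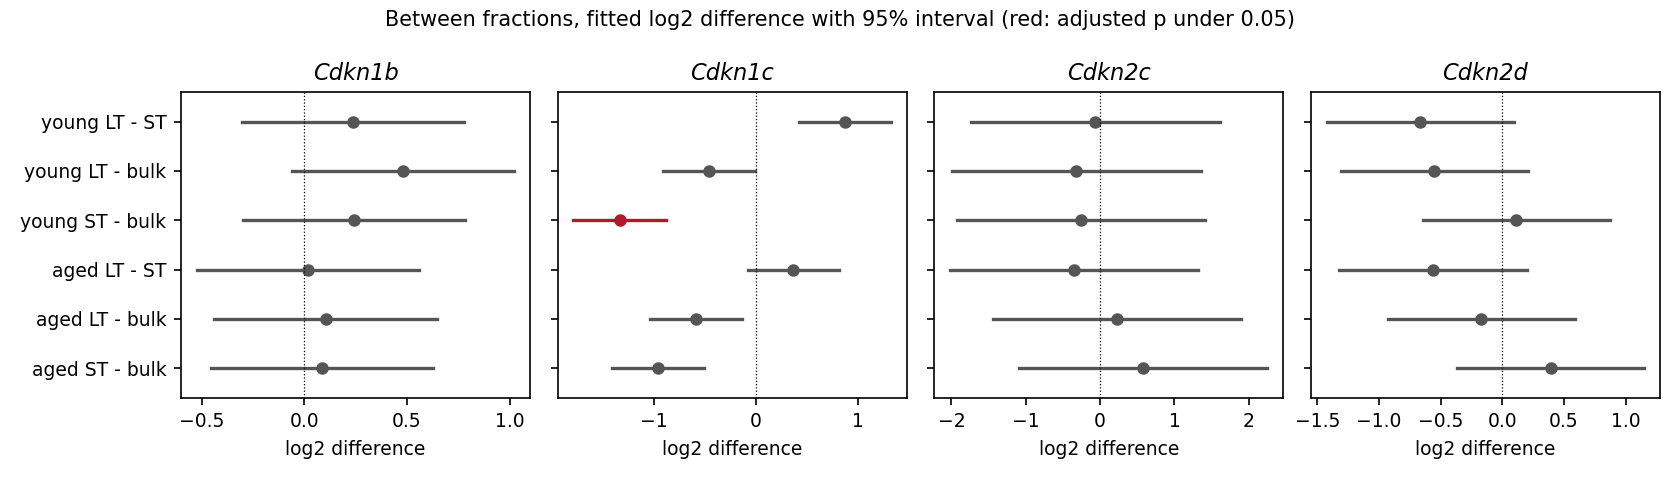
Fitted log2 differences between fractions at each age for the 4 members above 0 in every library, with 95% intervals from the edgeR fit. The Cdkn1c interval of ST-HSCs minus bulk-HSCs lies below 0 at both ages and is called in young mice, and the intervals of Cdkn1b, Cdkn2c and Cdkn2d all include 0.

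Cdkn2c and Cdkn2d were the detected INK4 genes. Cdkn2c encodes p18 (minus strand, chr4:109660876-109667189). It read 0.762, 5.29 and 15.9 CPM in young LT-HSCs, 4.72, 7.11 and 11.1 in young ST-HSCs, while young bulk-HSCs read 2.85, 5.40 and 19.1. Libraries of aged mice read 10.96, 12.03 and 14.2 CPM in LT-HSCs, 16.8, 15.9 and 14.5 in ST-HSCs, and 7.49, 10.1 and 14.1 in bulk-HSCs. The young libraries thus spanned 0.762 to 19.1 CPM and enclosed all aged libraries. In ST-HSCs every aged library was above every young one, as for Cdkn1a, which made 2 of 5 tested members in an arrangement that held for 10.2% of genes tested. The log2 difference with age was 0.76 ± 0.80 in LT-HSCs (SE, edgeR adjusted p = 0.920), 1.05 ± 0.80 in ST-HSCs (adjusted p = 0.831), 0.22 ± 0.79 in bulk-HSCs (adjusted p = 0.970) and 0.67 on average, with a 95% interval of -0.29 to 1.64 (adjusted p = 0.477). The exact permutation test within fractions gave p = 0.0283, which did not pass after adjustment (adjusted p = 0.154). The lowest young readings were in LT-HSC replicate 1 (0.762 CPM) and bulk-HSC replicate 1 (2.85 CPM), with 27.7% and 32.7% of low genes at 0, and the libraries with the most zeros, LT-HSC and ST-HSC replicates 3 (49.5% and 50.6%), held 15.9 and 11.1 CPM. The part of these zeros in the levels of Cdkn2c was not tested.

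Cdkn2d encodes the INK4 protein p19 (minus strand, chr9:21288410-21291407), which is distinct from mouse ARF. It read 19.4, 13.3 and 21.97 CPM in young LT-HSCs, 31.6, 17.7 and 37.3 in young ST-HSCs, while young bulk-HSCs read 18.5, 30.2 and 31.2. Libraries of aged mice read 21.9, 20.5 and 11.02 CPM in LT-HSCs, 20.5, 24.02 and 34.4 in ST-HSCs, and 23.7, 17.02 and 19.4 in bulk-HSCs. The ages overlapped in every fraction. The log2 age difference was -0.03 ± 0.36 in LT-HSCs (SE, edgeR adjusted p = 0.997), -0.13 ± 0.36 in ST-HSCs (adjusted p = 0.993), -0.41 ± 0.36 in bulk-HSCs (adjusted p = 0.762) and -0.19 on average, with a 95% interval of -0.63 to 0.25 (adjusted p = 0.707). LT-HSCs averaged 18.02 CPM against 27.6 in ST-HSCs over both ages, a log2 difference of -0.61 ± 0.26 that had an edgeR unadjusted p of 0.0275 and did not pass (adjusted p = 0.418).

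Cdkn2a (minus strand, chr4:89274471-89294653) and Cdkn2b (minus strand, chr4:89306299-89311039) were listed at 0 in each of the 18 libraries and could not be tested. At these depths a count of 0 allows up to 0.132 to 0.176 CPM, depending on the library and for counting error only. In all, 7828 gene symbols (32.1%) were at 0 in every library. Their neighbours on chromosome 4 differed. Mtap, an enzyme gene of methionine salvage, read 31.2 to 91.4 CPM, and Dmrta1 was also at 0 in all 18 libraries. Bmi1 and Ezh2, Polycomb genes known to silence the locus, averaged 93.0 and 39.8 CPM in aged HSCs against 82.8 and 53.4 CPM in young HSCs, and neither passed the age test (log2 difference 0.17 and -0.42, edgeR adjusted p = 0.335 and 0.166).

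By fraction, no member was called with age in LT-HSCs with edgeR, where 0.445% of genes were called, nor in ST-HSCs, where 0.851% were. No member had an unadjusted p under 0.05 in either, and DESeq2 and limma-voom also called 0. In bulk-HSCs edgeR called 0 members against 1.98% of genes. Cdkn1a alone had an unadjusted p under 0.05 there, and DESeq2 called it (adjusted p = 0.000106) while limma-voom did not. No member was called between LT-HSCs and ST-HSCs in aged mice, where 0.00781% of genes were called, none had an unadjusted p under 0.05, and DESeq2 and limma-voom called 0. The difference in age effect between fractions was called with edgeR in 0 members, Cdkn1a alone having an unadjusted p under 0.05, and with DESeq2 in Cdkn1a between LT-HSCs and bulk-HSCs (adjusted p = 0.0488). Between LT-HSCs and ST-HSCs 0% of genes were called for such a difference with edgeR, 502 genes (3.92%) having an unadjusted p under 0.05, and no member.

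**Figure D4:**
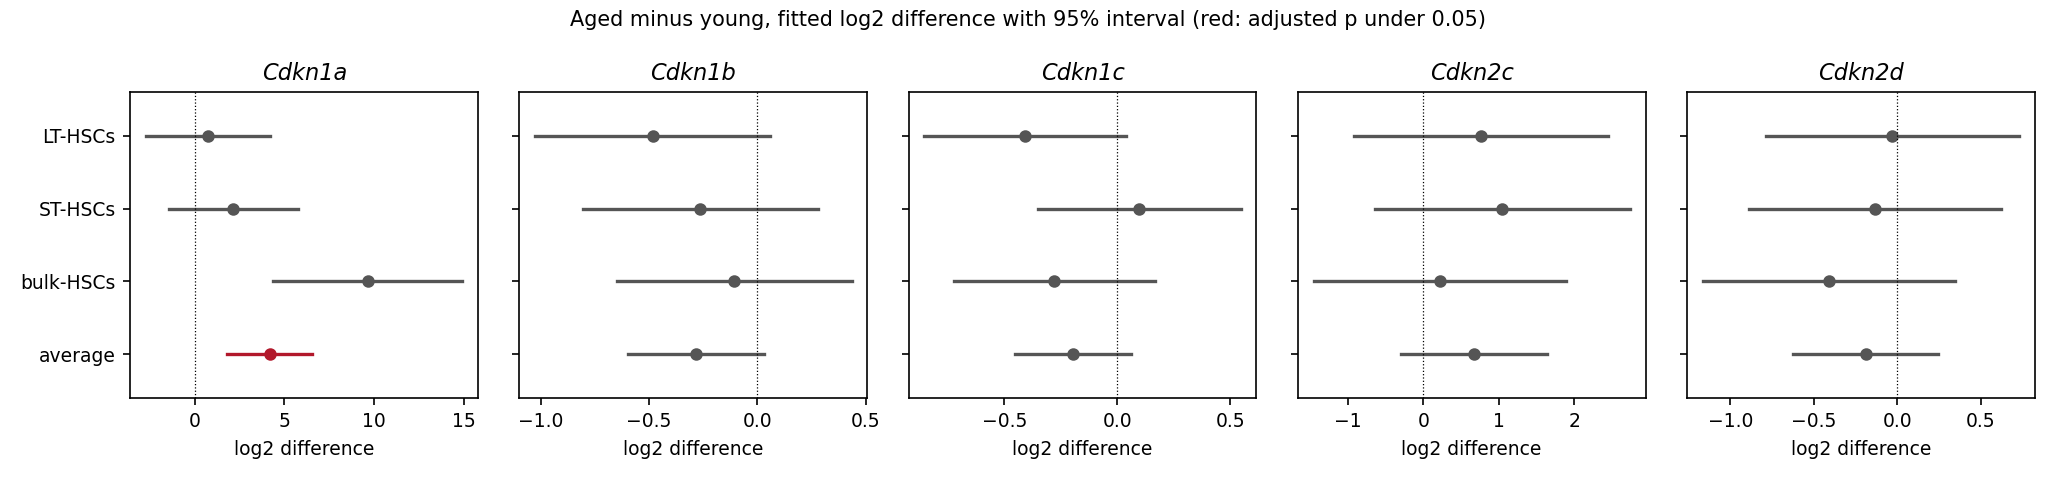
Fitted log2 differences, aged minus young, for the 5 tested members in each fraction and averaged, with 95% intervals from the edgeR fit and a separate horizontal scale for each gene. The averaged difference of Cdkn1a (4.18) is the 1 called, and its bulk-HSC value (9.65) is no measure of fold because the young libraries were at 0.

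Levels of different members were compared as CPM per kb of merged exons. Cdkn1c led in LT-HSCs and bulk-HSCs at both ages, with 26.2 ± 6.20 and 35.99 ± 6.86 CPM per kb in young and 19.8 ± 0.614 and 29.7 ± 0.667 CPM per kb in aged mice (SD, n = 3). Cdkn2d led in ST-HSCs at both ages, with 18.3 ± 6.39 CPM per kb in young and 16.7 ± 4.57 in aged mice. Its lead over Cdkn1b in young mice (15.8 ± 4.34) and over Cdkn1c in aged mice (15.3 ± 0.722 CPM per kb) was within the spread between libraries. Cdkn2c was the fourth in every group, at 2.72 to 5.87 CPM per kb, and Cdkn1a the lowest of the detected genes, at 0 to 1.72 CPM per kb.

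The members did not move as a block across libraries. Pearson correlations of their log2 CPM over the 18 libraries ran from -0.46, for Cdkn1a with Cdkn2d, to 0.54, for Cdkn1a with Cdkn2c. These points share depth, age and the zeros of young libraries, and the correlations are given as a description only. Of 9711 genes with a mean of at least 10 CPM, those most like Cdkn1c over the 18 libraries included Bex4 (r = 0.84) and Rad54l2 (0.77). Those most like Cdkn1b were Xrcc1 (0.81), Egln1 (0.80) and Ndufa2 (0.78). The genes most like Cdkn2c included Pafah1b2 (0.86) and S100a13 (0.82), and Cdkn2d was most like Ywhah (0.85), Fes (0.76) and Il17ra (0.76).

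The cyclins and CDKs that the inhibitors bind were listed together with the Rb and E2F genes downstream of them. Of 17 such cyclin, CDK, Rb and E2F genes 16 were tested, and with age, averaged over the fractions, 1 rose and 1 fell, where 6.75% of all genes tested were called. Ccnd1, the gene of cyclin D1, rose from 77.9 to 128 CPM (log2 difference 0.69 ± 0.12 SE, edgeR adjusted p = 0.00173), and Ccnd2, the gene of cyclin D2, fell from 802 to 627 CPM (-0.37 ± 0.06, adjusted p = 0.00156). By fraction Ccnd1 passed in bulk-HSCs (1.01 ± 0.21, edgeR adjusted p = 0.0185) and Ccnd2 in LT-HSCs (-0.54 ± 0.11, adjusted p = 0.0368). No gene of the list was called with edgeR for a difference in age effect between fractions. The list's median difference was -0.08, against 0.04 over all genes tested.

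Of 18 regulators of the members, all tested, 0 rose and 1 fell with age averaged over the fractions, a share near the 6.75% of all genes called. Foxo3, a transcription factor gene known to maintain HSC quiescence, fell from 164 to 134 CPM (log2 difference -0.29 ± 0.08 SE, edgeR adjusted p = 0.0304), and the median of the list was 0.06. Trp53, the gene of p53, averaged 139 CPM in aged and 157 CPM in young HSCs (-0.17 ± 0.08, edgeR adjusted p = 0.279). Mdm2, which encodes the ligase that degrades p53 and is itself a p53 target, averaged 66.5 and 55.5 CPM (0.29 ± 0.14, edgeR adjusted p = 0.253). Of 16 other p53 targets 15 were tested and 1 rose, again near the share of all genes called. It was Plk2, a kinase gene (1.95 ± 0.19, edgeR adjusted p = 6.76e-06). Their median was 0.28 against 0.04 over all genes tested, with 12 of 15 above 0. The share of all genes above 0 is not given here, and the part of the zeros of young libraries in these differences was not tested.

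Of 19 replication and mitosis genes, all tested, 7 fell with age averaged over the fractions, 0 rose and 12 did not pass, where 6.75% of all genes tested were called. The log2 difference was above 0 in 1 of the 19, and the median log2 difference was -0.59 against 0.04 over all genes tested. The 3 with the smallest p were the replicative helicase genes Mcm6 (-0.66 ± 0.11 SE, edgeR adjusted p = 0.000855), Mcm3 (-0.59 ± 0.11, adjusted p = 0.00202) and Mcm4 (-0.54 ± 0.11, adjusted p = 0.00677). Mki67, which marks cycling cells, fell from 234 to 119 CPM (-0.98 ± 0.22, edgeR adjusted p = 0.00929), and Top2a, a topoisomerase gene of dividing cells, fell from 153 to 97.9 CPM (-0.67 ± 0.18, adjusted p = 0.0281). Within LT-HSCs, ST-HSCs or bulk-HSCs 0 of the 19 passed with edgeR, where 6, 5 and 7 had an unadjusted p under 0.05. Of all genes tested, 8.81%, 9.67% and 13.3% had an edgeR unadjusted p under 0.05, and 0.445%, 0.851% and 1.98% were called. DESeq2 called 4, 1 and 3 of the 19, and limma-voom 0, 0 and 1. The shares of all genes called by these tools are not given here, so these counts cannot be set against them. In bulk samples fewer cycling cells and less of these RNAs per cell cannot be told apart.

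Cdkn1c lies in an imprinted domain on chromosome 7, in which the maternal copy of Cdkn1c is expressed and the long noncoding RNA Kcnq1ot1 silences the paternal one. Of 8 other genes of the domain 6 were tested. Kcnq1ot1 fell with age, from 870 to 587 CPM averaged over the fractions (log2 difference -0.57 ± 0.09 SE, edgeR adjusted p = 0.000469), and from 894 to 502 CPM in ST-HSCs (-0.83 ± 0.15, adjusted p = 0.0109), while the Cdkn1c difference on average was -0.20 and did not pass. The age difference of Kcnq1ot1 in ST-HSCs was not called apart from that in bulk-HSCs (edgeR adjusted p = 0.810). No other of the 6 passed with age, and none was called between fractions. Between ST-HSCs and bulk-HSCs over both ages, where Cdkn1c was called, Kcnq1ot1 differed by -0.08 ± 0.11 (edgeR adjusted p = 1), and Nap1l4 and Cd81, also of the domain, by 0.17 ± 0.12 (adjusted p = 0.932) and -0.25 ± 0.13 (adjusted p = 0.775).

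**Figure D5:**
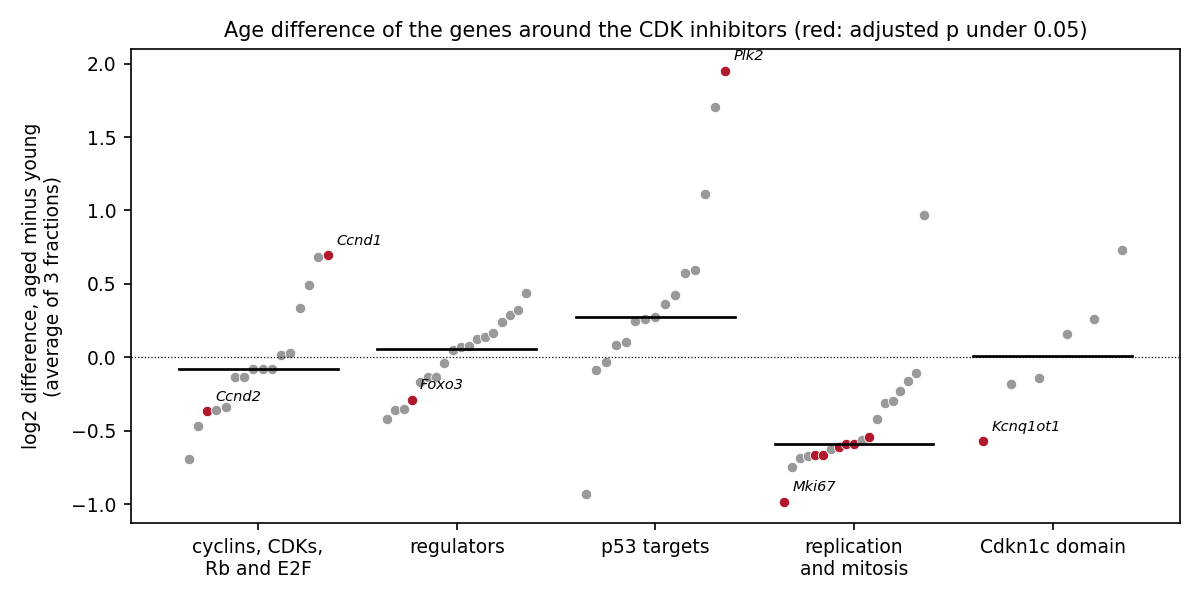
Log2 difference, aged minus young, averaged over the 3 fractions, for each tested gene of 5 lists around the members. Each point is a gene, the horizontal bars are list medians, and red points have an adjusted p under 0.05. Replication and mitosis genes lie mostly below 0, with a median of -0.59, and the other lists have medians between -0.08 and 0.28.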

How the data were processed

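The authors deposited whole-number counts per gene symbol for 18 libraries, made by HISAT2 alignment to mm10 and StringTie 1.3.4d. SAMtools 1.7 is also named in the submitters' processing notes. How StringTie output became gene counts, the annotation and the use of strand are not given in the sources used here.

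Libraries were grouped by their labels, and none was left out. Counts were analysed with edgeR 4.0.16 (limma 3.58.1, R 4.3.3), with DESeq2 1.42.0 as an alternative. With TMM factors of 0.951 to 1.03, 12808 genes were tested, those whose mean over all libraries reached 1 CPM. They included 5 of the 7 members. Cdkn1a averaged 1.54 CPM over the young libraries alone, although its means in young ST-HSCs (0.956 CPM) and young bulk-HSCs (0) were below 1 CPM. A quasi-likelihood model of the 6 group means gave 16 contrasts. Calls had a Benjamini-Hochberg adjusted p under 0.05 over all genes tested. Standard errors came from the log2 difference and the F statistic. The two-sided exact permutation test used log2 CPM with a prior count of 2 and 8000 arrangements within fractions, whose smallest possible p is 0.00025. With 3 against 3 libraries alone it could not go below 0.1, so it was not run by fraction. Depth was 16495048 to 22973844 counts, and reads carried no molecular identifiers.

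Exon lengths and coordinates came from GENCODE M21 (GRCm38) and promoter windows from RefSeq. Libraries with the same replicate number in different fractions of 1 age were treated as unpaired. The Pearson r of their deviations from group means was -0.0324 to 0.164, above 0.1 in 2 of 18 pairs. Of 36 pairs of unlike number at the same age, 0 were above 0.1. Young LT-HSC and ST-HSC replicates 3 also had the highest shares of low genes at 0 (49.5% and 50.6%). Whether such libraries shared animals was not tested, and a replicate block was fitted as an alternative.

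The members, gene lists, tests and alternatives were chosen with earlier results of these data known. Named were all members, list genes with an adjusted p under 0.05 with age (at most the 3 smallest p per contrast), Trp53, Mdm2, Bmi1, Ezh2, Mki67 and Top2a, and the 3 genes most correlated with each member of at least 10 CPM, some of which are not reported here. Mtap, Dmrta1, Nap1l4, Cd81 and the cell markers were named after seeing their values, outside this rule. Alternatives were library-size and RLE scaling, removal of Rn45s, filters of 1 count in any and of 10 counts in every library, DESeq2, limma-voom with quality weights, only the compared groups, detected genes as a covariate, a replicate block, each library left out, a prior count of 0.5 and the longest transcript. The fits without 2 young libraries and of LT-HSCs and ST-HSCs only were chosen after seeing the data. On simulated counts of 12808 genes, 200 of them changed 4-fold for aged LT-HSCs, edgeR recovered 115 with the right sign and called 2 unchanged genes. Apart from that change, the simulation gave each gene 1 level and 1 spread in all libraries, without the added zeros of young libraries. It therefore cannot speak to calls that rest on those zeros, such as that of Cdkn1a.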

Additional observations from a re-analysis of the deposited data

How the results depend on the processing

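Of 1010 refits of single-member differences, 953 kept direction and side of the threshold, 15 lost a call, 20 gained one and 22 changed sign, none of the sign changes in a called value. Where not said otherwise, the cause was not tested. The higher Cdkn1a with age averaged over fractions was the 1 member called, and 0 were called with detected genes as a covariate, in LT-HSCs and ST-HSCs only, or with 10 counts required in every library, which leaves Cdkn1a untested. Leaving out single libraries gave 0 to 1. In bulk-HSCs DESeq2 and the fit without the 2 young libraries that list the most genes at 0 called 1 member, Cdkn1a, and leaving out single libraries 0 to 1 (1 without young LT-HSC replicate 1 or young ST-HSC replicate 2 or 3). Between fractions, the 1 member called in young mice became 2 with DESeq2, 0 with limma-voom and 0 with only the groups compared. That fit has fewer libraries and its own estimate of spread. With single libraries left out it was 0 to 1 member. In aged mice DESeq2 and limma-voom each called 1, over both ages DESeq2 called 2, and for the difference in age effect DESeq2 called 1.

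The differences that changed sign were uncalled. With detected genes as a covariate the age difference of Cdkn1a in LT-HSCs was -0.039 (log2), that of Cdkn1c in ST-HSCs -0.070, and that of Cdkn2d 0.39, 0.24 and 0.11 in LT-HSCs, ST-HSCs and bulk-HSCs and 0.25 on average. With limma-voom Cdkn2d gave 0.085 in LT-HSCs and 0.058 in ST-HSCs. Without the 2 young libraries Cdkn1c gave -0.0035 in ST-HSCs, and Cdkn2d 0.12 in LT-HSCs and 0.10 in ST-HSCs. With single libraries left out, the ranges were -0.38 to 0.25 for Cdkn1b in bulk-HSCs, -0.0066 to 0.31 for Cdkn1c in ST-HSCs, -0.20 to 1.35 for Cdkn2c in bulk-HSCs, and -0.23 to 0.22 in LT-HSCs and -0.39 to 0.099 in ST-HSCs for Cdkn2d. Of the lists with age, DESeq2 called 2 targets in ST-HSCs, 1 regulator in bulk-HSCs, and 2 p53 targets in bulk-HSCs and 2 on average. It also called 4, 1 and 3 replication and mitosis genes in LT-HSCs, ST-HSCs and bulk-HSCs, and 1 domain gene in LT-HSCs. The shares of all genes that DESeq2 called are not given here, so these counts cannot be set against a background.

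With a replicate block, Cdkn2d in LT-HSCs changed sign to 0.017, and the members called stayed 1 on average with age (Cdkn1a, edgeR adjusted p = 0.0491), 1 between fractions in young mice and 1 over both ages. For Cdkn2a and Cdkn2b the depth leaves levels up to 0.176 CPM undetected, for counting error only. Zeros listed for other reasons would not be held to that limit. The permutation results and the levels per length kept direction and call under their alternatives.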
